A study of Mus musculus with 18 samples.

Results

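Kinesins are ATP-driven motors that carry cargo along microtubules, and 10 genes of this superfamily that serve transport and ciliary traffic between cell divisions are described here in mouse pancreatic ductal adenocarcinoma (PDAC) cells in which Gstt1 was knocked down. Gstt1 encodes an enzyme that couples glutathione to reactive molecules. The genes are Kif21b, Kif21a, Kif3a, Kif3b, Kif3c, Kifap3, Kif5b, Kif1b, Kif13a and Kif16b, 10 of the 16383 genes in the deposited expression table. They were chosen by name, as relatives of Kif21b and Kif3a, and those genes were picked because their measured levels were lower after knockdown in every culture set. The knockdown differences of the 10 genes are therefore given as a description, without a test. All 10 had passed the filter on low values, and tests are given below for lung against liver lines, for the knockdown effect between those sites and for the hairpins against each other.

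Kinesin-2 motors pull intraflagellar transport trains towards the tip of the primary cilium, the antenna-like organelle that epithelial cells can build when they stop dividing. Kif3a and Kif3b form the motor pair and Kifap3 is the non-motor subunit that completes the heterotrimer, while Kif3c can pair with Kif3a in place of Kif3b. Kif21a and Kif21b are kinesin-4 motors that also restrain microtubule growth, Kif21b being best known from neurons and immune cells. Kif5b is the widely expressed heavy chain of kinesin-1, and Kif1b, Kif13a and Kif16b are kinesin-3 motors for mitochondria and vesicles, for cargo sorted at endosomes and for early endosomes.

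The study measured RNA by RNA-seq in 18 libraries from 6 lines, each derived from a spontaneous metastasis of a mouse PDAC model, 42-3 and 6-2 from lung and 42-2, G45-2, 6-3 and 13-2 from liver. There were 6 libraries with Gstt1 shRNA 1 (2 lung, 4 liver), 4 with Gstt1 shRNA 2 (1 lung, 3 liver) and 8 with an NT control hairpin (3 lung, 5 liver), delivered by lentivirus. All cells were grown in RPMI with 10% FBS, selected with puromycin for 48 h and collected after a further split, so the controls carry virus and drug exposure too. By their genotype labels the lines share p48-Cre, which is active in the developing pancreas, and a p53 F/+ allele, and every line except 13-2 is also Sirt6 F/F. The labels do not state whether a line is a clone, and nothing in them says that libraries of a group came from separate cultures, so that p-values measure the spread between these libraries. A culture set is an NT control with the knockdown libraries of its line. Lines 42-3 and 42-2 have a first and a second set, told apart by their library codes, which makes 8 sets. Levels are in CPM (read counts scaled to the size of the library), which are not divided by gene length and are compared only within a gene, and the libraries held 8411436 to 25552912 reads. Differences are on the log2(CPM + 1) scale, knockdown minus the NT control of the same set, and a set with both hairpins contributes their mean.

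Gstt1 was lower in all 10 knockdown libraries, at 0.0687 to 23.9 CPM, against 0.616 to 52.5 CPM in the 8 NT controls. Gstt1 was only modestly lower in the shRNA 1 libraries of G45-2 (23.9 against 43.8 CPM) and 6-3 (19.2 against 25.4 CPM), and the NT controls of 42-2 already held little, at 2.67 and 0.616 CPM. In 5 culture sets the knockdown and control libraries differed at least 10-fold, with at least 10 CPM in the higher library, in 2 or more of 7 transcripts by which lines can be told apart, namely Xist, Y-linked genes, Cdkn2a and Cdkn2b. Ddx3y, a Y-linked helicase gene, was at 0 CPM in the knockdown library and 222 CPM in the control of the first 42-3 set. These sets were both 42-3 sets, 6-2, the first 42-2 set and 13-2, and results are given below also for the 3 sets left, the second 42-2 set, G45-2 and 6-3. The sets left are not free of such differences. In G45-2 Kdm5d was at 0 and 0.0621 CPM in the knockdown libraries against 29.8 CPM in the control, and in the second 42-2 set, below the 10 CPM limit, Eif2s3y was at 0.0687 CPM against 4.08 CPM, with Ddx3y, Kdm5d and Uty lower too. In 6-3 no transcript of the 7 differed in this way. In bulk RNA, fewer cells of a type and less RNA per cell cannot be told apart.

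Kif21b (ENSMUSG00000041642) had the widest downward difference of the 10 genes. In the lung sets it was at 26.2 CPM with shRNA 1 against 41.2 CPM with NT in the first 42-3 set, at 5.94 CPM with shRNA 2 against 46.1 CPM in the second 42-3 set, and at 0.921 CPM with shRNA 1 against 35.8 CPM in 6-2. The first 42-3 set thus had the smallest difference of the lung sets and 6-2 the largest. In the 42-2 sets it was at 3.81 CPM with shRNA 1 against 29.1 CPM, and at 4.54 CPM with shRNA 2 against 23.4 CPM. In G45-2 it was at 35.2 CPM with shRNA 1 and 24.5 CPM with shRNA 2, against 96.8 CPM in the control. The knockdown libraries of 6-3 held 5.09 CPM with shRNA 1 and 11.1 CPM with shRNA 2, against 62.8 CPM in its control, and 13-2 held 0.918 CPM with shRNA 1 against 15.1 CPM. The knockdown library was the lower one in each of the 10 pairs, yet the groups overlapped, because the 35.2 CPM of the G45-2 shRNA 1 library exceeded 3 of the 8 NT controls. What remained ranged from 2.57% of the control in 6-2 (exact 95% interval 1.51% to 4.11%, counting error only) to 63.7% in the first 42-3 set (56.8% to 71.4%). Over all libraries Kif21b averaged 11.8 ± 12.2 CPM after knockdown (SD, n = 10) and 43.8 ± 25.9 CPM in NT controls (SD, n = 8).

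Kif3a (ENSMUSG00000018395), the shared motor of both kinesin-2 forms, had a smaller and more even difference. In lung sets it was at 43.6 CPM with shRNA 1 against 85.6 CPM with NT in the first 42-3 set, at 59.3 CPM with shRNA 2 against 133 CPM in the second, and at 52.3 CPM with shRNA 1 against 114 CPM in 6-2. The knockdown libraries of the lung sets were thus near the same fraction of their controls. In the 42-2 sets it was at 100.02 CPM with shRNA 1 against 130.5 CPM, and at 94.7 CPM with shRNA 2 against 151 CPM. G45-2 held 69.7 CPM with shRNA 1 and 85.0 CPM with shRNA 2, against 141 CPM with NT. For 6-3 the levels were 51.5 CPM with shRNA 1 and 60.3 CPM with shRNA 2, against 119 CPM, and for 13-2 they were 63.8 CPM with shRNA 1 against 135 CPM. Of the 10 knockdown libraries, 8 lay below the lowest NT control, and the exceptions were those of line 42-2. The level that remained was 43.3% of the control in the 6-3 shRNA 1 library (exact 95% interval 39.5% to 47.4%) at the lowest and 76.7% in the first 42-2 set (71.7% to 81.9%) at the highest. Kif3a averaged 68.0 ± 19.1 CPM after knockdown (SD, n = 10) and 126 ± 20.2 CPM in NT controls (SD, n = 8).

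**Figure D1:**
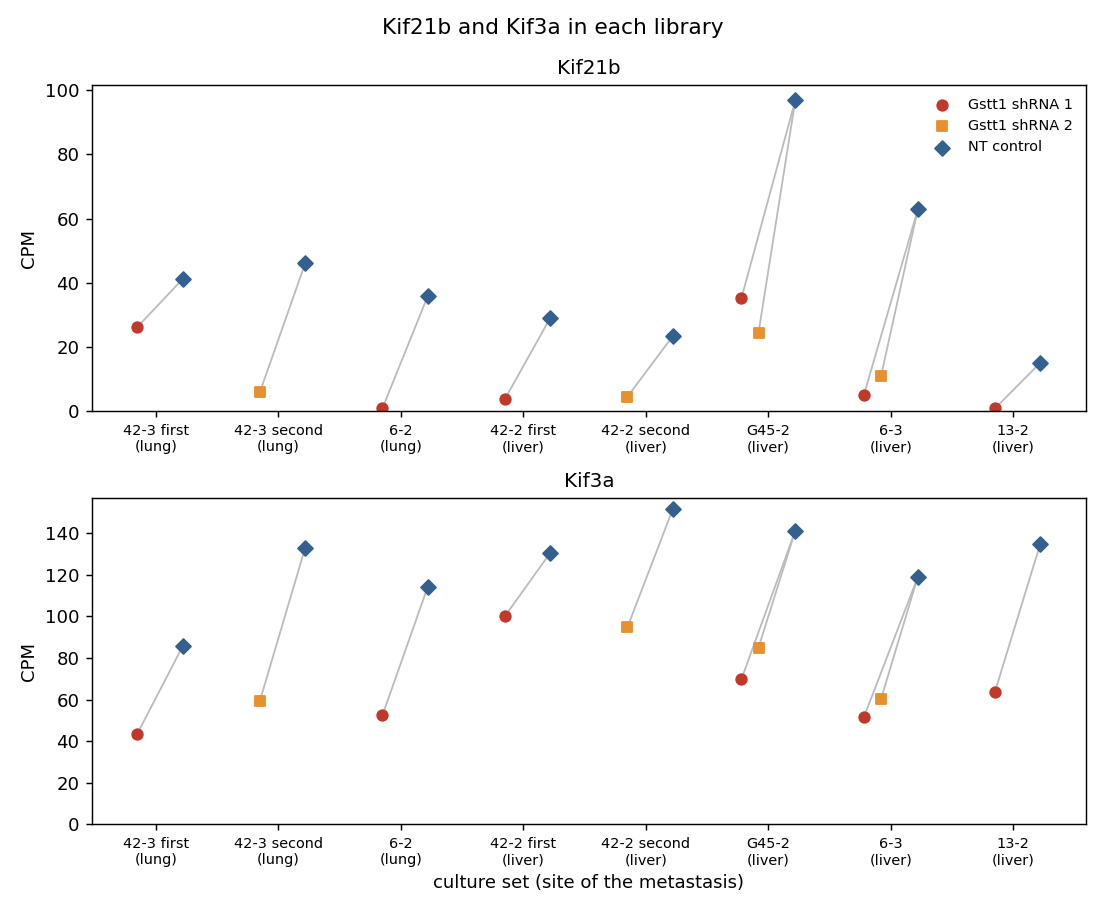
Level of Kif21b (top) and Kif3a (bottom) in CPM in each of the 18 libraries, by culture set, with knockdown libraries (circles for Gstt1 shRNA 1, squares for Gstt1 shRNA 2) left of the NT control (diamonds) and a line joining each knockdown library to its control. Every line runs upwards to the control, steeply for Kif21b in G45-2 (35.2 and 24.5 CPM against 96.8 CPM).

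The mean log2 difference over the 8 sets was −2.51 ± 1.07 (SD) for Kif21b, with sets between −4.26 in 6-2 and −0.63 in the first 42-3 set. For Kif3a it was −0.91 ± 0.27 (SD, n = 8 sets), between −1.15 in the second 42-3 set and −0.38 in the first 42-2 set. Kif21b thus varied more between sets than Kif3a, and the set with the widest Kif21b difference was not that with the widest Kif3a difference. Being lower in every set was true of 2.43% of the 12931 genes tested (314 genes) and was the ground on which these genes were chosen, so nothing is read from it. Among the other 8 genes, Kif3c was lower in the most sets, 5 of 8, with a mean difference of 0.04 ± 0.59 (SD, n = 8 sets).

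In the 3 sets left under the limits on identity transcripts the mean was −2.24 for Kif21b and −0.87 for Kif3a, against −2.67 and −0.93 in the 5 sets past them. In 6-3 alone the differences were −2.90 and −1.08. Since the genes were chosen for being lower in every set, these sizes are a description. In 6-3 and 13-2 the knockdown and control libraries carry different library codes (CFa12 and CFa11), and there the mean was −2.98 for Kif21b and −1.07 for Kif3a. Where both libraries carry one code, Kif21b averaged −2.51 with CFa8 (3 sets), −2.22 with CFa11 (2 sets) and −2.14 with CFa13 (1 set). Kif3a averaged −0.82 with CFa8, −1.01 with CFa11 and −0.67 with CFa13.

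Kif21a (ENSMUSG00000022629), the close relative of Kif21b, went in opposite directions between sets. It was at 5.75 CPM with shRNA 1 against 3.46 CPM with NT in the first 42-3 set, at 10.8 CPM with shRNA 2 against 0.0674 CPM in the second, and at 29.8 CPM with shRNA 1 against 0.738 CPM in 6-2. The 0.0674 CPM of the second 42-3 control is 1 read, with an exact 95% interval of 0.0017 to 0.375 CPM. The lung sets therefore had the higher level after knockdown. In the 42-2 sets it was at 21.6 CPM with shRNA 1 against 0.445 CPM, and at 8.25 CPM with shRNA 2 against 10.4 CPM. G45-2 held 0.692 CPM with shRNA 1 and 0.621 CPM with shRNA 2, against 4.26 CPM with NT. In 6-3 it was near the level of a few reads throughout, at 0.0795 CPM with shRNA 1 and 0.583 CPM with shRNA 2 against 0.477 CPM, and 13-2 held 14.3 CPM with shRNA 1 against 9.76 CPM. The log2 differences were 3.47, 4.15 and 3.97 in the second 42-3 set, in 6-2 and in the first 42-2 set, 0.60 and 0.50 in the first 42-3 set and 13-2, and −0.30, −1.67 and −0.18 in the second 42-2 set, G45-2 and 6-3. The 5 sets in which Kif21a was higher after knockdown are the 5 past the limits on identity transcripts, with a mean of 2.54, and the 3 in which it was lower are the sets left, with a mean of −0.72. G45-2 was at 16.2% and 14.6% of its control (exact 95% intervals 8.25% to 29.5% and 6.71% to 28.3%). The lower values of the other sets left are not resolved. The second 42-2 set was at 79.3% (61.5% to 102%). In 6-3 the hairpins went opposite ways, at 16.7% (0.370% to 130%) with shRNA 1 and 122% (36.6% to 408%) with shRNA 2. The part of the differences in identity transcripts in the Kif21a values was not tested.

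**Figure D2:**
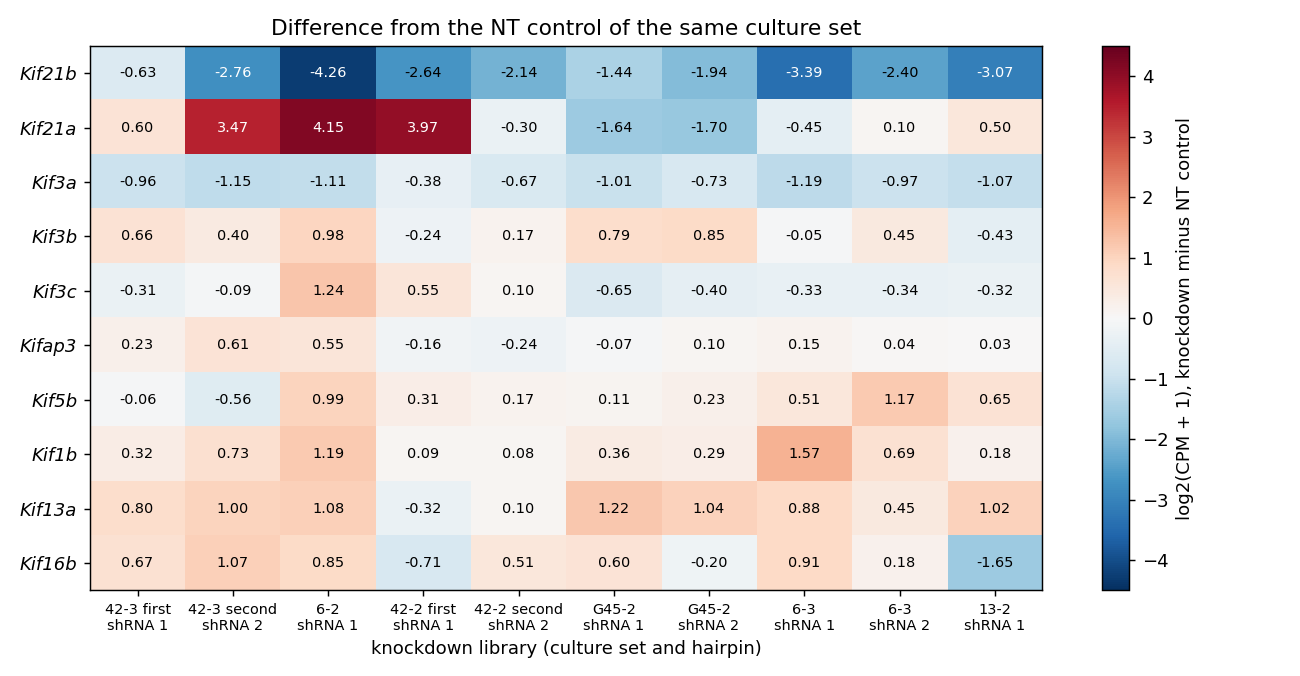
Difference in log2(CPM + 1) between each of the 10 knockdown libraries (columns) and the NT control of its culture set, for the 10 kinesin genes (rows), with blue for lower and red for higher after knockdown. The rows of Kif21b and Kif3a are below 0 in all 10 libraries, and the row of Kif21a runs from −1.70 in the G45-2 shRNA 2 library to 4.15 in 6-2.

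The other subunits of kinesin-2 were not lower in every set as Kif3a was. Kif3b (ENSMUSG00000027475), its usual partner, ranged over 40.8 to 93.3 CPM with a median of 56.0 CPM after knockdown, against 36.4 to 67.0 CPM with a median of 47.9 CPM in NT controls, and was higher in 6 of 8 sets. Its mean difference was 0.32 ± 0.50 (SD, n = 8 sets), with the highest value, 0.98, in 6-2 and the lowest, −0.43, in 13-2. Kifap3 (ENSMUSG00000026585), the cargo-binding subunit, ranged over 57.0 to 86.4 CPM after knockdown and 43.0 to 84.0 CPM in NT controls, and its differences lay within −0.24 to 0.61. Kif3c (ENSMUSG00000020668), the alternative partner, averaged 55.1 ± 13.8 CPM after knockdown and 56.0 ± 14.4 CPM in NT controls (SD, n = 10 and n = 8), and was lower in 5 of 8 sets. In 6-2 it stood apart at 84.8 CPM against 35.3 CPM. The groups overlapped widely for these 3 genes. In the 3 sets left under the limits on identity transcripts, the mean was 0.40 for Kif3b, −0.04 for Kifap3 and −0.25 for Kif3c.

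Since Kif3a, Kif3b and Kifap3 encode the parts of the heterotrimer but differ in direction, the 250 bases before their transcription starts are shown, 5′ to 3′, from RefSeq (GRCm38.p6, a later build than the mm9 of the deposited table). Capitals mark GGGCGG (the GC box, bound by Sp-family factors) and CCAAT (the CCAAT box, bound by NF-Y) on either strand. The windows are chr11:53567119-53567368 for Kif3a, chr2:153291166-153291415 for Kif3b and chr1:163779333-163779582 for Kifap3, all on the plus strand.
Kif3a: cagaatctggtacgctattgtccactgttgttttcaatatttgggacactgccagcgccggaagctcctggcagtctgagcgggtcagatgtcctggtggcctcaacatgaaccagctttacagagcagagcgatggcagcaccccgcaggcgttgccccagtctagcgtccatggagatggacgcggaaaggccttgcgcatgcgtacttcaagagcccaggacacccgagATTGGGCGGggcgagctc
Kif3b: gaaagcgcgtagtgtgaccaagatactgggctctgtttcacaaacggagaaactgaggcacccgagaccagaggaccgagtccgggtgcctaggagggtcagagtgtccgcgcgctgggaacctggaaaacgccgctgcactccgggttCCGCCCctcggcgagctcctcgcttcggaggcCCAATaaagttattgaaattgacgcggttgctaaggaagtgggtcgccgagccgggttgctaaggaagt
Kifap3: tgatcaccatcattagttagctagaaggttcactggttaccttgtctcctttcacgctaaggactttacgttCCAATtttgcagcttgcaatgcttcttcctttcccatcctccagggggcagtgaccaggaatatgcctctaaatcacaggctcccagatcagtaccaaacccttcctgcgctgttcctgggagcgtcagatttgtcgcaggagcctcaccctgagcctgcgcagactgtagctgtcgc
The windows of Kif3a and Kif3b each held 1 GGGCGG and 1 CCAAT, which overlap in Kif3a, where both lie just before the start and the CCAAT reads as ATTGG. The window of Kifap3 held 1 CCAAT and no GGGCGG. Among 32851 promoter windows of the same length, 32.7% held GGGCGG and 33.9% held CCAAT, on either strand, so both are common. The AP-1 motif TGANTCA (in 6.75% of windows) and the cyclic AMP response element TGACGTCA (in 1.55%) were not found in these 3 windows. The bases that follow the RefSeq start were found in a GENCODE vM21 transcript for Kif3b and Kifap3 but not for Kif3a. Promoters of 8 of the 10 genes were matched.

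The kinesin-1 and kinesin-3 motors were mostly higher after knockdown. Kif1b (ENSMUSG00000063077) was higher in each of the 10 knockdown libraries than in its control, at 109.7 CPM against 87.6 CPM in the first 42-3 set, 141 against 84.6 CPM in the second, 179 against 78.1 CPM in 6-2, 126 against 118 CPM in the first 42-2 set and 124 against 117 CPM in the second. In G45-2 it was at 128 CPM with shRNA 1 and 123 CPM with shRNA 2, against 99.9 CPM, in 6-3 at 138 and 75.2 CPM against 46.1 CPM, and in 13-2 at 101 CPM against 88.6 CPM. The mean difference was 0.51 ± 0.45 (SD, n = 8 sets), and it was 0.09 and 0.08 in the 42-2 sets. Higher in every set was true of 1.34% of the genes tested (173 genes), and of Kif1b as 1 of the 10 kinesins. After median-ratio rescaling of the libraries no kinesin of the 10 was higher in every set.

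Kif13a (ENSMUSG00000021375) ran over 28.4 to 72.0 CPM after knockdown, with a median of 61.8 CPM, against 27.8 to 39.1 CPM in NT controls, with a median of 31.9 CPM. Of the 10 knockdown libraries, 8 lay above all NT controls, and the exceptions were again those of line 42-2, at 28.4 CPM with shRNA 1 and 33.9 CPM with shRNA 2. Its mean difference was 0.69 ± 0.52 (SD, n = 8 sets), with 1.13 in G45-2 and −0.32 in the first 42-2 set. Across the 18 libraries Kif13a had the most opposed pattern to Kif3a among the 10 genes, with a Pearson r of −0.83. Kif5b (ENSMUSG00000006740) was at 227 to 600.4 CPM after knockdown and 159.7 to 360.1 CPM in NT controls, higher in 6 of 8 sets, with a mean difference of 0.31 ± 0.51 (SD). It was lower in both 42-3 sets, by 0.06 and 0.56 on the log2 scale. Kif16b (ENSMUSG00000038844) was at 29.0 to 82.3 CPM after knockdown and 25.9 to 93.1 CPM in NT controls. It was higher in 6 of 8 sets and lower in 13-2, at 29.0 CPM against 93.1 CPM, and in the first 42-2 set, at 31.9 CPM against 52.7 CPM.

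**Figure D3:**
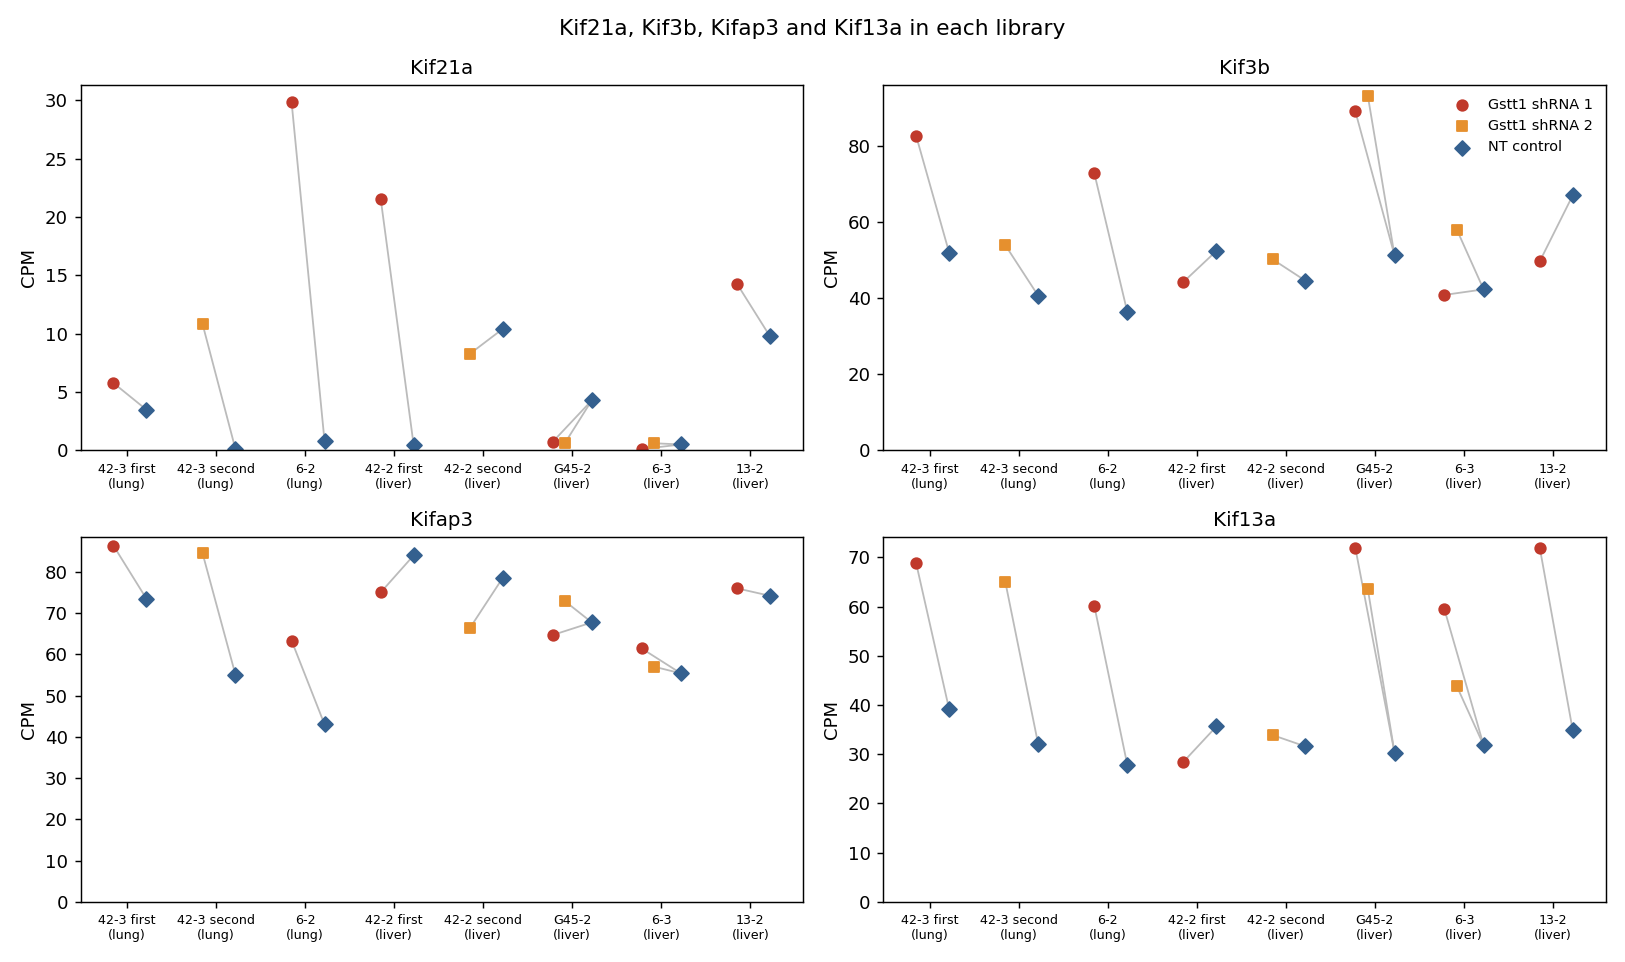
Level in CPM of Kif21a, Kif3b, Kifap3 and Kif13a in each library, by culture set, with knockdown libraries (circles and squares) left of the NT control (diamonds). Kif13a is higher after knockdown in 7 of 8 sets, Kif3b and Kifap3 in 6 of 8, and Kif21a reaches 29.8 CPM in the 6-2 knockdown library.

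No gene of the 10 had knockdown libraries wholly apart from the NT controls, which 0.186% of the genes tested had (24 genes). The median difference over the 10 genes in the limma fit was 0.26, against −0.03 over all genes tested. In the 3 sets left under the limits on identity transcripts, Kif21b, Kif21a and Kif3a were lower in all 3, as were 18.3% of the genes tested. Kif3b, Kif5b, Kif1b, Kif13a and Kif16b were higher in all 3, as were 13.9% of the genes tested. The knockdown values chose the genes, so nothing is read from these shares.

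Each kinesin was also set beside the median difference of the other tested genes on its chromosome, a comparison added after the data were seen. Chromosomes were matched for 98.8% of the genes tested, from RefSeq names. In the first 42-3 set and in 6-2 the median of chromosome 15 was −0.81, in the first 42-2 set that of chromosome 10 was 0.80, and in the second 42-2 set the chromosome medians stayed within −0.23 and 0.34. Kif3a lies on chromosome 11, where the median of the other genes ranged from −0.60 in the second 42-3 set to 0.26 in the first 42-2 set, so the sets in which Kif3a was least and most reduced were those in which its chromosome stood highest and lowest. Relative to that median Kif3a was lower in all 8 sets, by a mean of −0.68 ± 0.21 (SD), with the widest value, −1.12, in 6-3. Kif21b lies on chromosome 1, and relative to its chromosome it was lower in all 8 sets, with a mean of −2.46 ± 1.12 (SD). In the first 42-3 set it was −0.27 relative to the median, where the other genes of chromosome 1 stood at −0.36. Kif3a and Kif21b were chosen for being lower in every set, so nothing is read from their being lower in all 8 here. Relative to their chromosomes 1.99% of genes were lower in every set and 1.89% higher, and no kinesin of the 10 was higher in every set, Kif1b being higher in 7 of 8. The 3 sets with the highest Kif21a, on chromosome 15, had medians of −0.55, −0.81 and −0.04 for that chromosome.

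**Figure D4:**
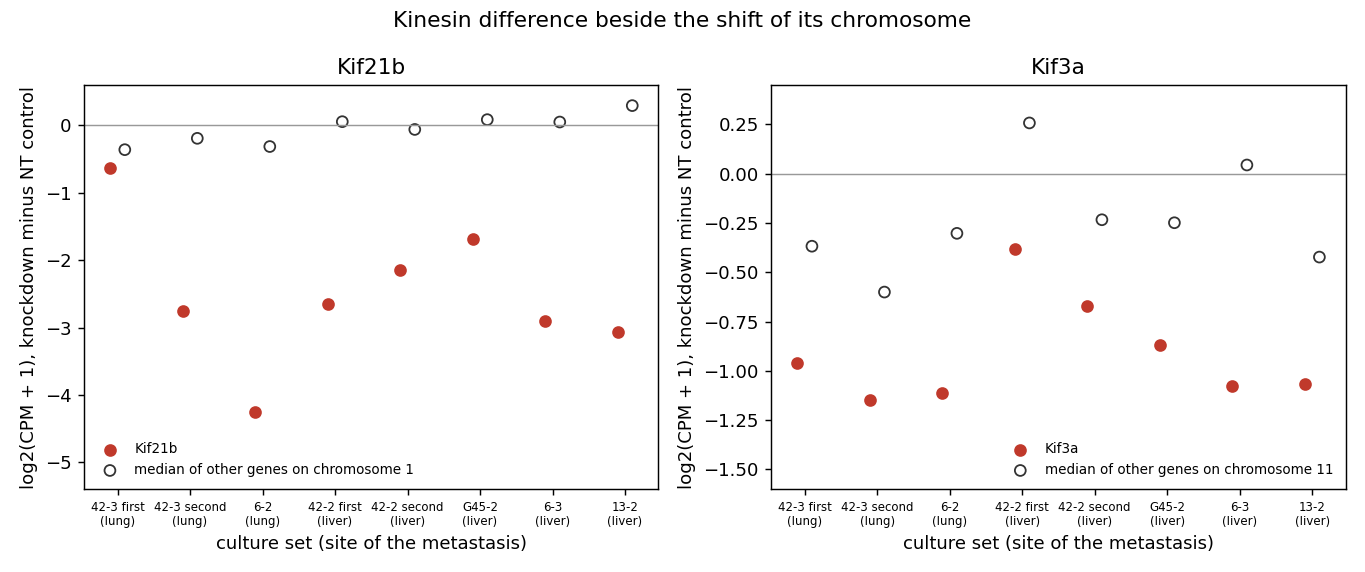
Difference in log2(CPM + 1), knockdown minus NT control, of Kif21b (left) and Kif3a (right) in each culture set (filled circles), with the median difference of the other tested genes on the same chromosome (open circles; 738 genes on chromosome 1 and 1077 on chromosome 11). The filled circle lies below the open one in all 8 sets of both panels, by 0.27 for Kif21b in the first 42-3 set.

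In NT controls the question was whether lines from lung and liver metastases differ in these motors, with each line as a unit, 2 lung lines against 4 liver lines. Kif21b had the widest order of levels among lines apart from Kif21a, with line means of 96.8 CPM in G45-2, 62.8 CPM in 6-3, 43.6 CPM in 42-3, 35.8 CPM in 6-2, 26.2 CPM in 42-2 and 15.1 CPM in 13-2. The pairs of controls within 42-3 and 42-2 differed by 0.16 and 0.30 on the log2 scale, against a range of 2.60 over lines. The neighbours 42-3 and 6-2 lay closer than the controls of 42-2, so their order is not resolved. The line means of Kif3a spanned 0.40 on the log2 scale, less than the 0.63 between the controls of line 42-3, so its order among lines is not resolved. Kif13a was also even, with a range of 0.34. By line means the lung lines were at 109 and 114 CPM of Kif3a against 119 to 141 CPM in the liver lines, which do not overlap, and at 35.8 and 43.6 CPM of Kif21b against 15.1 to 96.8 CPM, which do. The single controls of Kif3a did overlap, with those of 42-3 at 85.6 and 133 CPM and that of 6-3 at 119 CPM. Kif5b was at 275 and 328 CPM in lung lines against 159.7 to 267 CPM in liver lines, without overlap. The line means of Kif16b did not overlap either, at 32.4 and 38.1 CPM in lung lines against 39.5 to 93.1 CPM in liver lines. Its single controls did overlap, with those of 42-3 at 25.9 and 50.4 CPM and those of 42-2 at 28.9 and 52.7 CPM. Thus 3 of the 10 genes had lung and liver lines apart, and so did 25.9% of all genes tested, so the share among the kinesins is near the background.

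No kinesin of the 10 passed an adjusted p of 0.05 between lung and liver controls (limma with Benjamini-Hochberg adjustment over 12931 genes, two-sided), where 0.0309% of genes did (4 genes). In that fit none of the 10 had an unadjusted p under 0.05. With edgeR, which took the 8 controls as independent, none passed after adjustment, Kif5b having an unadjusted p of 0.0466 (adjusted p = 0.297). In limma with the 8 controls correlated within line, Kif5b had an unadjusted p of 0.0305 (adjusted p = 0.200). The lung minus liver difference was −0.00 for Kif21b (95% interval −1.62 to 1.61, adjusted p = 0.998) and −0.27 for Kif3a (−0.73 to 0.18, adjusted p = 0.568). The smallest p among the 10 belonged to Kif5b, at 0.45 (−0.18 to 1.08, limma adjusted p = 0.497), and Kif21a followed in that rank, at −1.14 (−2.86 to 0.58, limma adjusted p = 0.531). Within library code CFa11 the Kif3a difference was 0.02 and within CFa8 it was −0.40, and for Kif5b the values were 0.70 and 0.34.

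**Figure D5:**
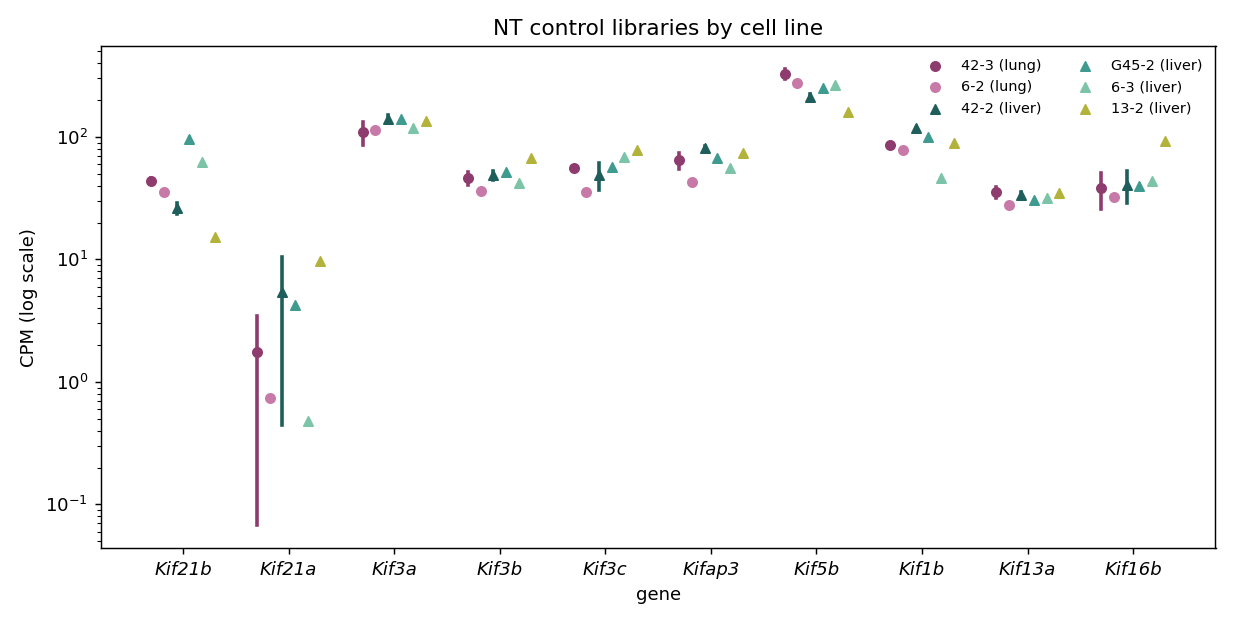
CPM (log scale) of the 10 kinesin genes in NT controls, by cell line, with lung lines as circles left of liver lines as triangles. A bar joins both controls where a line has a pair, and Kif21b runs from 15.1 CPM in 13-2 to 96.8 CPM in G45-2 while Kif13a stays within 27.8 to 35.6 CPM over line means.

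The knockdown effect was compared between lung and liver sets by an interaction term. Kif21b and Kif3a were chosen for lower values in every set, so opposite directions between the sites could not appear for them. For this pair the term compares only the sizes of differences that the choice had used. The 3 lung sets come from 2 lines and the 5 liver sets from 4 lines. The fit took each set as a unit, so its intervals and p-values count both sets of 42-3, and both of 42-2, as independent. Kif21b averaged −2.55 in the 3 lung sets and −2.49 in the 5 liver sets, an interaction of −0.07 (95% interval −1.73 to 1.59, limma adjusted p = 0.971). Kif3a averaged −1.07 in lung sets and −0.81 in liver sets, an interaction of −0.23 (−0.84 to 0.37, limma adjusted p = 0.693). The smallest p was that of Kif21a, which averaged 2.74 in lung sets and 0.46 in liver sets (2.41, −0.22 to 5.05, limma adjusted p = 0.319), followed by Kifap3, at 0.46 in lung sets and −0.05 in liver sets (0.50, −0.06 to 1.07, limma adjusted p = 0.335). No kinesin of the 10 passed the threshold, against 0.186% of genes (24 genes). None of the 10 had an unadjusted p under 0.05 in limma, and none passed with edgeR. The 3 lung sets are all past the limits on identity transcripts, as are 2 liver sets, the first 42-2 set and 13-2. Within these 5 sets the Kif21a differences were 0.60, 3.47 and 4.15 in lung and 3.97 and 0.50 in liver, which overlap.

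The hairpins could be compared within G45-2 and 6-3, which carry both, and across the other sets through their controls. Kif21b was lower with shRNA 2 than with shRNA 1 in G45-2 (24.5 against 35.2 CPM) and higher with shRNA 2 in 6-3 (11.1 against 5.09 CPM). Kif3a was higher with shRNA 2 in both, at 85.0 against 69.7 CPM in G45-2 and 60.3 against 51.5 CPM in 6-3. In the fit shRNA 2 minus shRNA 1 was 0.25 for Kif21b (95% interval −0.97 to 1.46) and 0.13 for Kif3a (−0.34 to 0.60), each with a limma adjusted p of 0.999926. The 2 genes of smallest p were Kif1b, at −0.26 (−0.90 to 0.37), and Kif3b, at 0.20 (−0.44 to 0.84), with the same adjusted p. Of all genes tested 0% passed, 0 genes by limma with 64 at an unadjusted p under 0.05, and 0 by edgeR with 57. In G45-2 and 6-3 the hairpins left unequal Gstt1. It was at 5.15 CPM with shRNA 2 and 23.9 CPM with shRNA 1 in G45-2, and at 0.250 and 19.2 CPM in 6-3. Kif3a was at 49.4% of the control with shRNA 1 and 60.2% with shRNA 2 in G45-2, and at 43.3% and 50.7% in 6-3. Kif21b was at 36.3% with shRNA 1 and 25.3% with shRNA 2 in G45-2, and in the opposite order, 8.1% and 17.6%, in 6-3. Whether either gene followed the Gstt1 level was not tested.

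The genes most like each of the pair were ranked by Pearson r over the 18 libraries among 10521 genes, as a description over points that share lines and knockdown. For Kif21b they were 5730469M10Rik (r = 0.86), Abcc3 (0.85), which encodes a conjugate-exporting transporter, Tmem185b (0.84) and Calml4 (0.84). Abcc3 was at 60.9 ± 63.7 CPM after knockdown and 181 ± 84.6 CPM in NT controls (SD, n = 10 and n = 8). For Kif3a they were 5033414D02Rik (0.90), Arrb2 (0.89), which encodes beta-arrestin 2, Rg9mtd3 (0.87) and Zkscan6 (0.87). Arrb2 and Zkscan6 lie on chromosome 11 like Kif3a. Arrb2 was at 40.8 ± 13.5 CPM after knockdown and 71.0 ± 8.69 CPM in NT controls (SD, n = 10 and n = 8). Kif21b and Kif3a themselves had an r of 0.55, and Kif21b and Kif21a one of −0.60.

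Around the 10 genes, the listed genes of the same machinery had no gene past an adjusted p of 0.05 for knockdown (limma with Benjamini-Hochberg adjustment), which 0.0387% of all genes tested had (5 genes, with 2216 at an unadjusted p under 0.05). With edgeR 0 genes passed. The median over all genes was −0.03. Among 17 tested subunits of intraflagellar transport complex B, which kinesin-2 carries outwards, 13 had a lower and 4 a higher fitted value, with a median of −0.25. Ift27 was at 11.3 ± 7.37 CPM after knockdown and 45.7 ± 23.4 CPM in NT controls (SD, n = 10 and n = 8), with a difference of −1.75 and lower in 8 of 8 sets (limma adjusted p = 0.101). Rabl5 (Ift22) was also lower in 8 of 8 sets, by a difference of −0.71, and Ift20 in 7 of 8, by −0.70 (limma adjusted p = 0.159 for each). The 5 subunits of complex A, which serves the return journey, had 2 lower and 3 higher values with a median of 0.03, and the 9 subunits of the BBSome cargo adaptor had 7 lower and 2 higher with a median of −0.08. The 15 other tested kinesins of interphase had 10 lower and 5 higher values, with a median of −0.07. Kif19a, a kinesin that shortens microtubules at ciliary tips, had the smaller p of the 2 named and was at 0.277 ± 0.342 CPM after knockdown and 1.07 ± 0.553 CPM in NT controls (SD, n = 10 and n = 8), lower in 7 of 8 sets (limma adjusted p = 0.164). Kif7, the ciliary regulator of Hedgehog signalling, was at 21.4 ± 9.73 CPM after knockdown against 12.9 ± 4.42 CPM in NT controls (SD; limma adjusted p = 0.211). Of 18 tested cilium and centriole markers 8 had lower and 10 higher values, with a median of 0.14. All 20 markers were in the table with summed levels of 426 to 872 CPM after knockdown and 469 to 844 CPM in NT controls, and these levels do not measure how many cells had cilia. Of 8 tested partners of Kif21 proteins and cargoes of kinesin-2, 1 was fitted lower and 7 higher, with a median of 0.22.

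Markers of cell type and growth moved beside these genes. The 10 epithelial tumour markers summed to a median of 4423 CPM after knockdown (398 to 7795 CPM) and 10137 CPM in NT controls (561 to 15237 CPM), with 9 of 10 fitted lower. Their lowest sums in either group, 398 and 561 CPM, were those of the second 42-2 set. In 13-2 the sum was instead higher after knockdown, at 6708 against 2989 CPM. In the first 42-2 set it was little changed, at 2456 against 2575 CPM. Fibroblast markers, 6 of 8 in the table, summed to 3845 CPM in the first 42-3 knockdown library against 2.72 CPM in its control, the set with the smallest Kif21b difference, and to 117 against 1.95 CPM in the second 42-3 set. Their sum was lower after knockdown in the first 42-2 set (21.7 against 62.6 CPM) and in 13-2 (40.6 against 123.6 CPM). Of the 4 tested, 2 were fitted lower and 2 higher. Col3a1 made up most of the highest sums, reaching 6083 CPM, while Pdgfrb reached at most 329 CPM. They reached 6443 CPM in the second 42-2 shRNA 2 library and 2907 CPM in its control, and the lowest sums were 0.999 CPM after knockdown and 1.5 CPM in controls, both in 6-3, with Dcn at 0 in 9 libraries and Lum in 15. Neuron markers, 6 of 7 in the table, summed to 1.59 to 64.8 CPM after knockdown and 9.88 to 154 CPM in NT controls, with Rbfox3 at 0 in 10 libraries and never above 0.275 CPM. Their sum was higher after knockdown in the second 42-2 set (64.8 against 41.0 CPM) and in 6-3 with shRNA 2 (10.8 against 9.88 CPM). Snap25, a synaptic vesicle fusion protein gene, was lower in 8 of 8 sets, but was at 0 in 4 libraries and under 1 CPM in 8. Stmn2 was lower in 6 of 8 sets. The 6 proliferation genes summed to 679.7 to 2742 CPM after knockdown and 330.4 to 1370 CPM in NT controls, and 6 of 6 were fitted higher. Their sum was nevertheless lower after knockdown in both 42-3 sets, at 679.7 against 1370 CPM in the first and 1099 against 1220.5 CPM in the second. The part of these markers in the kinesin values was not tested. Endothelial and leukocyte markers summed to at most 30.1 CPM in any library. Hepatocyte markers, 3 of 6 in the table, summed to 0.357 to 173 CPM after knockdown and 0.308 to 664 CPM in NT controls, and none of 5 lung epithelium markers is in the table.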

How the data were processed

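The authors deposited 1 table of CPM values with 16383 genes. Per the submitters' processing notes the build was mm9. The aligner, counter and annotation were not given in the sources used here. Total RNA (1.3 µg) went into TruSeq libraries, per the labels' protocols. In each library the CPM values were whole multiples of 1 read (100% within 0.01 reads), which gave the read numbers; 3 reads are 0.117 to 0.357 CPM. The exact intervals on levels and percentages cover counting error only. Those of the limma tests cover the spread between libraries or lines. Every pair of libraries differed beyond sampling noise (smallest chi-square per degree of freedom 33.0).

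Genes were kept if 4 or more libraries had a CPM of 1 or more (12931 genes). log2(CPM + 1) was fitted with limma 3.58.1 (R 4.3.3, trended variance) with culture set as a block, and the threshold was 0.05 on two-sided p-values after Benjamini-Hochberg adjustment. The knockdown contrast is the mean of both hairpins. Line means were compared between sites in limma, and single controls in edgeR. edgeR 4.0.16 (quasi-likelihood) on recovered reads was an alternative. Both were checked on simulated data. Other alternatives were pseudocounts of 0.5 and 2, no filter, a CPM of at least 5, rescaling, other blocks and left-out sets or lines. Sets pair by the line in the labels; deviations of paired libraries correlated at −0.36 to 0.70, 4 of 10 above 0.1. Python 3.11.15, pandas 2.3.3, numpy 2.4.6, scipy 1.17.1 and matplotlib 3.10.9 made tables and plots. The 10 genes and the lists were chosen with earlier results of these data known. All 10 genes are named. Per test the text names Kif21b, Kif3a and the 2 genes of smallest p, and per list the 2 of smallest p or those in 1 direction in every set, of which only some are printed. Chromosomes and promoters came from RefSeq tables (GRCm38.p6) by symbol.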

Additional observations from a re-analysis of the deposited data

Results flagged for a closer look

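Kif21b in the G45-2 shRNA 1 library stood apart from its group, at 35.2 CPM against 0.918 to 5.09 CPM in the other 3 liver shRNA 1 libraries (n = 4). It was the single value set apart in this way among 20 checks of a kinesin gene within a group, and chance sets apart about 1 in 20 groups. The NT control of G45-2 was also the highest of the 8, at 96.8 CPM. Gstt1 in the G45-2 shRNA 1 library was at 23.9 CPM. The 6-3 shRNA 1 library held Gstt1 at 19.2 CPM with Kif21b at 5.09 CPM. A link between the levels of Gstt1 and Kif21b was not tested.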

How the results depend on the processing

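No kinesin of the 10 passed the threshold in the lung against liver, interaction or hairpin tests under any alternative run; of 220 alternative values of the named genes, 204 kept their direction and 16 turned. The fitted knockdown differences of the 10 genes moved by less than their SD over sets, a wide measure, in 199 of 199 values, but 9 changed sign, 8 of Kif3c (−0.0084, up to 0.1096 without 6-3 and 13-2) and 1 of Kifap3 (0.1371, −0.0218 without the identity sets). Kif16b (0.1955) ran over 0.0384 without the second 42-3 set to 0.5008 without the identity sets, Kif5b (0.3277) was 0.1485 without 6-3 and 13-2, and Kif21a (1.098) was 0.6433 without the second 42-3 set. The count of genes lower in every set is fixed by the choice of Kif21b and Kif3a and was 2 to 3. Higher in every set was 1 gene, 0 after median-ratio rescaling or relative to the chromosome median, 5 without the sets that differ in identity transcripts, and 1 to 2 with a set left out. The counts over all genes depended on the settings. For knockdown (5 genes) they were 0 with no filter, without lines 6-3 and 13-2, without the identity sets and by edgeR, 84 with no replicate block, 51 with the line as the block, and 0 to 8 with a set left out (8 without the first 42-3 set, 3 without G45-2 and 0 without either 42-2 set, the second 42-3 set, 6-2, 6-3 or 13-2). For lung against liver (4) they were 2 with a pseudocount of 0.5, 18 with no filter, 14 at a CPM of at least 5, 1 by edgeR, 78 with 8 controls correlated within line, 0 within CFa11, and 0 to 167 with a line left out (167 without 6-3). For the interaction (24) they were 40 after quantile normalization, 2 with no replicate block, 0 without 6-3 and 13-2, 9 by edgeR, and 0 to 48 with a set left out. The replicate block changed no call among the 10 genes in these tests. Kif21b between sites (−0.0043) turned to 0.0005 with a pseudocount of 0.5, 0.0415 after median-ratio rescaling, 0.0176 after quantile normalization and within CFa11, 0.2116 with 8 controls, and −0.449 to 0.418 with a line left out. Kif3a between sites turned to 0.0173 within CFa11. The Kif21b interaction ran over −1.0953 to 0.769 with a set left out. Between hairpins Kif21b turned to −0.0253 with the line as the block, −0.1559 without 6-3 and 13-2, and ran over −0.0302 to 0.5138 with a set left out, and Kif3b turned to −0.0498 without 6-3 and 13-2. The cause of these moves was not tested. The interaction could not be fitted without the identity sets, which hold the 3 lung sets, and Kif21a was not tested there. Depth limits Kif21a most, since 3 reads are up to 0.357 CPM.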

Other observations

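Cargo adaptors of kinesin-1 and the minus-end motor were not described above. Of 23 tested kinesin light chains and adaptors 7 had a lower and 16 a higher fitted knockdown difference, with a median of 0.10 against −0.03 over all genes. Klc3, a kinesin light chain, was at 4.58 ± 3.61 CPM after knockdown and 16.5 ± 7.54 CPM in NT controls (SD, n = 10 and n = 8), a difference of −1.85 and lower in 8 of 8 sets (limma adjusted p = 0.0758). Klc4, another light chain, was at 28.5 ± 16.5 CPM after knockdown and 49.1 ± 16.3 CPM in NT controls (limma adjusted p = 0.199). Among 26 genes of cytoplasmic dynein, dynactin and their regulators 14 were fitted lower and 12 higher, with a median of −0.09. Dctn3, a dynactin subunit, was lower in 8 of 8 sets, by a difference of −0.62 (limma adjusted p = 0.118), while Dync1h1, the dynein heavy chain, was higher in 8 of 8, at 267 ± 48.3 CPM after knockdown and 181 ± 28.6 CPM in NT controls (limma adjusted p = 0.144). None of these passed the threshold.

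The 14 mitotic kinesins, which build and move the spindle, were fitted higher in 14 of 14 cases, with a median difference of 1.02, and none passed the threshold in limma. Kif15, a spindle motor, was at 60.0 ± 23.3 CPM after knockdown and 23.3 ± 15.0 CPM in NT controls (SD, n = 10 and n = 8; difference 1.69, limma adjusted p = 0.111). Kif11, which slides spindle microtubules apart, was at 149.8 ± 52.2 CPM after knockdown and 72.2 ± 42.5 CPM in NT controls (difference 1.27, limma adjusted p = 0.112). Of the 10 transport and ciliary kinesins, by comparison, the median fitted difference was 0.26.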
